A study of Rattus norvegicus with 99 samples.

Results

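The right ventricle (RV) of rats with a banded pulmonary artery (PAB) was compared between compensated hypertrophy and heart failure, in separate animals. The question was which genes respond to PAB differently at these stages. It was addressed by an interaction, the change upon PAB at failure minus the change upon PAB at the compensated stage. The comparison used 20 of the 99 libraries of the series, all from RV. The libraries were assigned by the sample labels, except that 2 animals, PAB-H replicate 6 and Sham-H replicate 6, had been left out because their ventricle labels were uncertain, so that the members were in part chosen by measured values, the genes that differ between the ventricles. All animals were male hybrids, with a Wistar Kyoto mother and a Lewis father, and all were operated. PAB animals carried a clip around the pulmonary artery, loose at the time of surgery, and shams had surgery without banding.

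At the compensated stage there were 6 PAB-H and 6 Sham-H animals, aged 11 weeks and 7 weeks after surgery. At failure there were 3 PAB-F and 2 Sham-RF animals, aged 27 weeks and 21 weeks after surgery. Another 3 shams of the failure stage, Sham-LF, were 30 weeks old, 24 weeks after surgery, and had served as controls of aortic banding. Sham-RF and Sham-LF were pooled into 5 older shams. These ages are those of the labels, by which surgery took place at an age of 4 weeks in the compensated groups and of 6 weeks in the failure groups, and the text of the study gives other ages. Whole ventricular tissue was used, so that each library mixes the RNA of all cell types, and fewer cells of a type cannot be told apart from less RNA per cell.

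The RV normally pumps against the low resistance of the lung vessels and has a thin wall. A narrowed pulmonary artery raises its pressure load, and the myocytes thicken while fetal and stress genes such as the natriuretic peptides are switched on. When the load persists, the chamber can dilate, extracellular matrix is laid down, and oxidative metabolism is known to decline.

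The RV and LV labels were checked before any comparison. For each animal, the difference between its RV and its LV library was taken over 50 genes that differ between the ventricles in the other animals, and was expressed as a ratio to the median animal. In 3 of 33 animals the difference was opposite to the labels, and in the other 30 the ratio ranged from 0.268 to 1.63. The opposite animals were AOB-H replicate 1, which is not used here, Sham-H replicate 6, which had been left out, with a ratio of -1.08, and PAB-H replicate 2, which is among the 20 members, with a ratio of -1.16. PAB-H replicate 6, which had been left out for uncertain labels, had a ratio of 0.976, as labelled. Among the members with the direction of their labels, PAB-F replicate 2 had the lowest ratio, 0.268. The members were kept as given, and the main results are also stated with PAB-H replicate 2 left out in place of PAB-H replicate 6. What is called PAB-H replicate 2 is thus the library labelled RV of that animal.

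**Figure D1:**
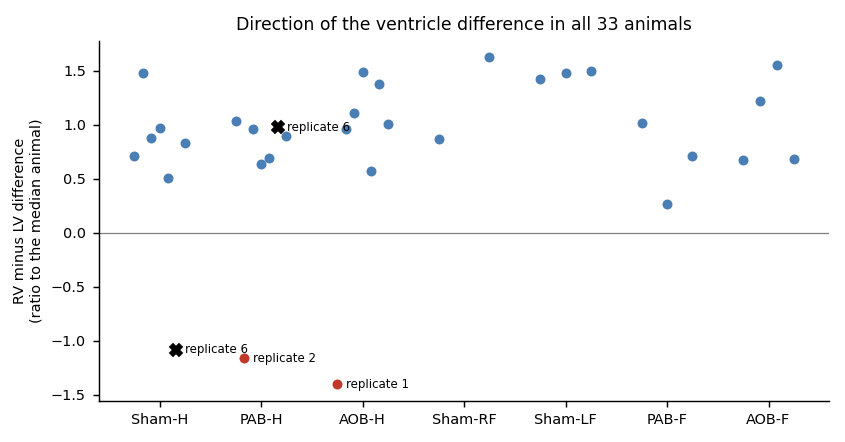
The RV minus LV difference of each of the 33 animals over 50 ventricle genes is plotted as a ratio to the median animal (vertical axis, no unit) by group. Crosses are the 2 animals left out, red points the others below 0, and among the members PAB-H replicate 2 lies at -1.16, while the left-out PAB-H replicate 6 lies at 0.976.

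Total counts of the 20 libraries ranged from about 12816300 to 23804100. Libraries were made in 3 series. All 8 libraries of the failure stage belonged to series 2, while each compensated group had 2 libraries in series 1, 3 in series 2 and 1 in series 3. The first principal component of log2 CPM (counts scaled to the library total) explained 43.9% of the variance, and of its spread a share of 0.488 lay between library series and one of 0.179 between the 4 groups. Of 8 cardiomyocyte markers, 7 were in the table, and they summed to between 48358 and 72307 CPM in each library, against 1578 to 2622 CPM for 8 fibroblast markers.

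No gene passed the interaction at an adjusted p of 0.05 among 11474 genes tested (edgeR quasi-likelihood test, Benjamini-Hochberg adjusted), so the share of genes called was 0%. At an unadjusted p under 0.05, 256 genes (2.23%) had a higher and 380 genes (3.31%) a lower change at failure than at the compensated stage, 636 in all. About 574 would be expected at this threshold if no gene changed. With DESeq2, 4 genes passed. Among these were the myelin gene Mbp, the ubiquitin protease gene Usp40 and LOC104940696, of which the last was chosen for mention after its value was seen. With PAB-H replicate 2 left out in place of replicate 6 no gene passed in edgeR, and 797 had an unadjusted p under 0.05. Leaving out PAB-F replicate 1 made 4 genes pass, among them Mbp, the connective tissue growth factor gene Ctgf and Fcer2, the last again named after its value was seen. Without PAB-H replicate 1 only Mbp passed, and without Sham-H replicate 1 or without Sham-LF replicate 3 there was 1 gene each. The genes described next for the interaction are among those with the lowest p in each direction, and none of them passed in the fit of the 20 libraries. PAB-F and the older shams did not overlap in 1656 of all 11474 genes. In genes chosen by p from these libraries, a lack of overlap is no added support.

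Mbp, myelin basic protein, which compacts the myelin sheath, was among the 10 genes of lowest p in the higher direction. The PAB-F libraries held 3.75, 6.46 and 6.66 CPM and the older shams 2.33, 2.21, 1.58, 2.04 and 2.74 CPM, without overlap. In PAB-H 5 of 6 libraries lay below all Sham-H libraries, and replicate 1 lay above all of them with 3.46 CPM. The interaction was 1.70 ± 0.32 on the log2 scale (SE, adjusted p 0.177 in edgeR), made of a rise by 1.36 ± 0.24 in PAB-F and a difference of -0.34 ± 0.20 in PAB-H, with an adjusted p from 0.00317 to 0.999 over the alternative settings, and passed in 3 of 32. With PAB-H replicate 2 left out in place of replicate 6 the interaction of Mbp was 1.64 (adjusted p 0.107).

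Other members of the list of Schwann and neuronal markers went in both directions. Sox10, a transcription factor of the Schwann lineage, differed by -0.76 ± 0.25 (SE) in PAB-F, S100b by -0.40 ± 0.23 and Dbh, which makes noradrenaline in sympathetic nerves, by 0.69 ± 0.24, none of them passing the threshold (adjusted p 0.107, 0.325 and 0.125). The summed level of the whole list, 7 of 7 genes in the table, ranged from 35.4 to 39.3 CPM in PAB-F and from 32.9 to 45.6 CPM in the older shams. In PAB-H it ranged from 23.5 to 35.4 CPM, against 31.0 to 48.3 CPM in Sham-H.

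Among the other genes of low p were some of connective tissue. Ctgf, a matricellular growth factor, had 112, 529 and 346 CPM in PAB-F and 122, 111, 120.0, 152 and 108 CPM in the older shams. Replicates 2 and 3 of PAB-F were high, and replicate 1 lay within the shams. Its interaction was 1.58 ± 0.43 (adjusted p 0.859). Fap, a protease of activated fibroblasts, had 7.49, 12.0 and 8.24 CPM in PAB-F and 6.25, 4.66, 4.43, 4.48 and 3.63 CPM in the older shams, with no overlap. The interaction of Fap was 0.90 ± 0.25 (adjusted p 0.859), and in PAB-H it differed from Sham-H by 0.08 ± 0.16.

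Another 6 of the 10 genes had the same adjusted p of 0.859. They were Abca4, a lipid transporter (interaction 1.51 ± 0.43), Pcp4, which binds calmodulin (2.17 ± 0.62), Themis2, a signalling protein of immune cells (0.93 ± 0.26), Homer3, a scaffold protein (0.60 ± 0.17), Ddx54, an RNA helicase (0.40 ± 0.10), and Tnip1, an inhibitor of NF-kappaB signalling (0.31 ± 0.09). For Abca4 the levels were 1.77, 3.11 and 2.59 CPM in PAB-F, and 0.581, 0.524, 0.525, 0.734 and 0.781 CPM in the older shams. For Ddx54 they were 41.8, 41.2 and 36.9 CPM in PAB-F, and 30.8, 30.9, 27.9, 30.3 and 32.3 CPM in the older shams. Both genes were without overlap between these groups, at differences of 1.97 ± 0.33 and 0.39 ± 0.08.

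In the lower direction Usp40, which encodes a ubiquitin protease, had 26.4, 25.5 and 24.1 CPM in PAB-F and 44.4, 37, 36.4, 39.4 and 36.8 CPM in the older shams. All PAB-F libraries lay below the shams, while PAB-H, with a median of 29.0 CPM, and Sham-H, with 30.7 CPM, overlapped. The interaction of Usp40 was -0.56 ± 0.11 (adjusted p 0.315). Colq, the collagen tail that anchors acetylcholinesterase, had 9.60, 8.13 and 7.56 CPM in PAB-F, and 15.3, 15.7, 18.1, 20.1 and 17.8 CPM in the older shams, again without overlap. Its interaction was -0.96 ± 0.21 (adjusted p 0.385). Phlda1 had an interaction of -0.77 ± 0.21, and Mitf, a basic helix-loop-helix transcription factor, one of -0.43 ± 0.10. Ankrd10, the demethylase gene Alkbh1 and the origin recognition gene Orc5 had interactions of -0.54 ± 0.15, -0.46 ± 0.13 and -0.45 ± 0.13. Part of an interaction can lie in the shams. Older shams exceeded Sham-H by 0.36 ± 0.07 in Usp40 and 0.37 ± 0.09 in Ankrd10 (adjusted p 0.140 and 0.195). There PAB-F differed from PAB-H by -0.21 ± 0.09 and -0.17 ± 0.11. In Colq and Phlda1 the sham differences were 0.05 ± 0.13 and -0.0041 ± 0.14. PAB-F differed from PAB-H by -0.91 ± 0.16 and -0.77 ± 0.16 in these. Mitf, Orc5 and Alkbh1 had sham differences of 0.15, 0.18 and 0.17.

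In the other 3 of these 10 genes the older shams differed from the young shams at an adjusted p under 0.05. No other gene of the 11474 passed in that comparison. Pfkfb1, which sets the level of fructose bisphosphate and thereby glycolysis, had 2.86, 1.97 and 1.43 CPM in PAB-F and 4.43, 4.90, 6.46, 7.17 and 4.86 CPM in the older shams. In PAB-H its lowest, median and highest levels were 1.07, 1.72 and 2.51 CPM, and in Sham-H 1.49, 1.83 and 1.84 CPM. All 5 older shams lay above every other library. Older shams exceeded Sham-H by 1.65 ± 0.21 on the log2 scale (adjusted p 0.00145), and PAB-F differed from PAB-H by 0.24 ± 0.25. Pla2g2a, a secreted phospholipase, showed the same arrangement, with 33.7, 27.7 and 28.7 CPM in PAB-F, 57.6 to 112 CPM in the older shams, a median of 32.9 CPM in PAB-H and of 37.4 CPM in Sham-H. For Cdh22, a cadherin, the older shams exceeded Sham-H by 0.82 ± 0.12 (adjusted p 0.00486) and PAB-F differed from PAB-H by 0.14 ± 0.14. The interactions of Pfkfb1, Pla2g2a and Cdh22 were -1.42 ± 0.33, -1.16 ± 0.31 and -0.68 ± 0.18 (SE). Sham-H replicates 3, 4 and 5 were in library series 2 with all 5 older shams, and they held 1.82, 1.84 and 1.75 CPM of Pfkfb1, 40.3, 31.8 and 36.3 CPM of Pla2g2a and 14.3, 14.8 and 16.7 CPM of Cdh22, where the older shams held at least 4.43, 57.6 and 23.4 CPM. Within series 2 these shams did not overlap in these 3 genes. The genes were chosen by p from these same libraries, so this is no added support. The part of library series in the sham difference was not tested. Age, time after surgery and stage move together in these values and in the interactions of the other genes, and cannot be told apart.

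**Figure D2:**
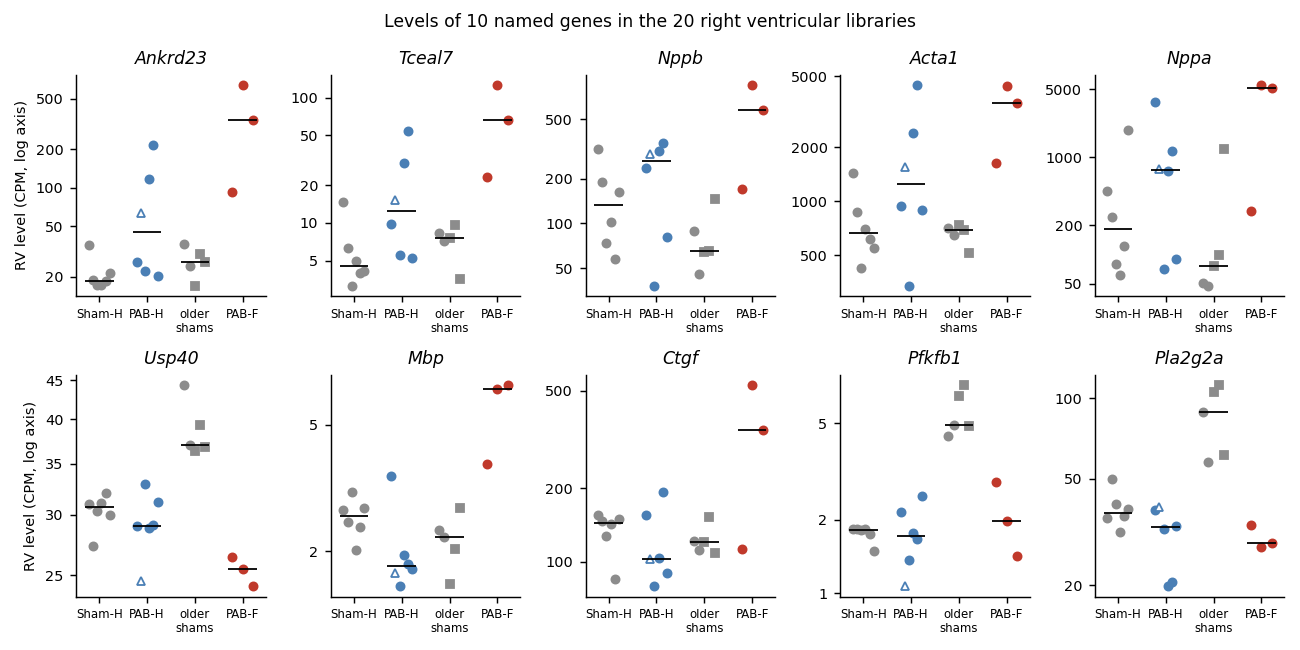
Levels of 10 named genes in the 20 RV libraries are shown in CPM on a log axis. Points are animals, squares Sham-LF, the open triangle PAB-H replicate 2, and black lines group medians. Usp40 lies at 26.4, 25.5 and 24.1 CPM in PAB-F, below all 5 older shams.

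Stage by stage, in PAB-F against the older shams 143 genes passed, of which 84 (0.732% of those tested) rose and 59 (0.514%) fell. In PAB-H against Sham-H no gene passed (0%) in edgeR, and none passed in DESeq2. In edgeR 347 (3.02%) had an unadjusted p under 0.05, where about 574 would be expected if no gene changed. The difference between the stages was itself tested by the interaction above, in which no gene passed, so that these counts do not show that the stages differ in any gene.

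The count in PAB-F rested on single libraries. Without PAB-F replicate 2 or without replicate 3 no gene passed (edgeR, 1300 and 1357 at an unadjusted p under 0.05), and without replicate 1 it was 591. Without Sham-LF replicates 1, 2 or 3 the count was 1, 23 and 334, and without Sham-RF replicates 1 or 2 it was 30 and 24. Without PAB-H replicate 1 it was 292, and without Sham-H replicates 3, 4 or 7 it was 77, 76 and 82. With only Sham-RF or only Sham-LF as older shams no gene passed (1192 and 2211 at an unadjusted p under 0.05). Sham-LF replicate 1 was placed by its title and age, while 1 other label of that RV library names it as a PAB sham, which bears on these last fits and not on the pooled shams. Adding library series as a covariate gave 1190 genes, series 2 alone 543 and DESeq2 520, and these included 143, 142 and 143 of the 143. In a fit that also held the RV libraries of the aortic banding groups, 31 in all, 2 genes passed, Usp40 and Pla2g2a.

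**Figure D3:**
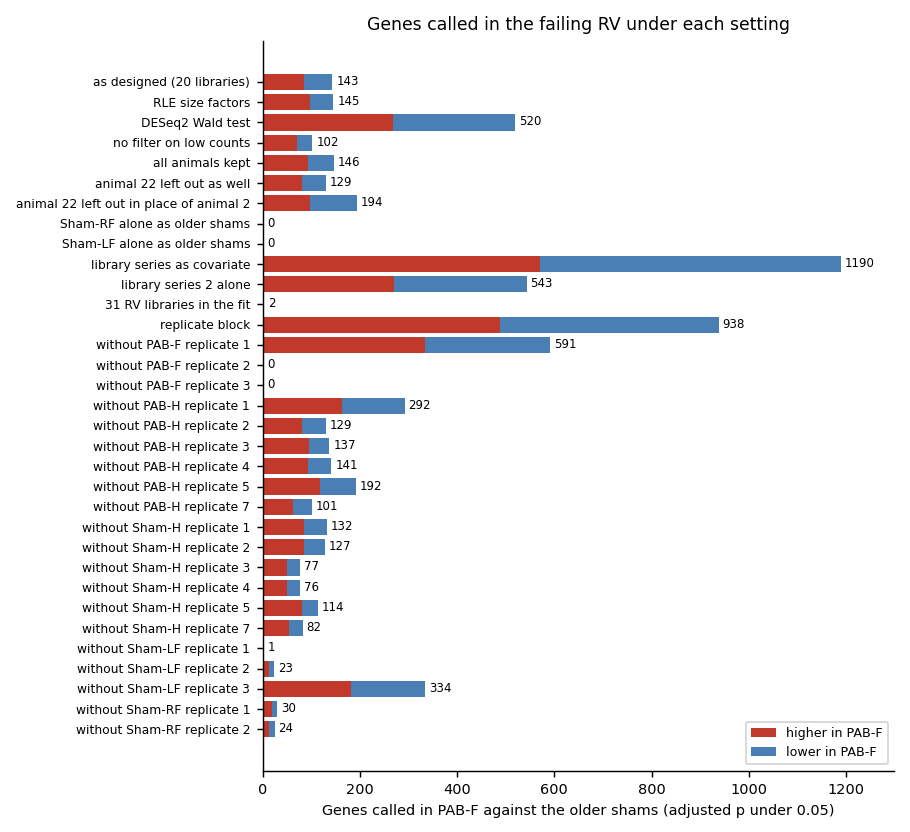
Horizontal bars give the number of genes called in PAB-F against the older shams under each setting, red for higher and blue for lower, where animal 22 is PAB-H replicate 2 and animal 2 is PAB-H replicate 6. The count runs from 0, without PAB-F replicate 2 or 3 or with a single sham group, to 1190 with library series as a covariate.

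The genes called at failure were also looked up at the compensated stage, which shares no library with the failure arm. They were chosen by their difference in PAB-F, which tends to enlarge their values there. A median nearer to 0 in PAB-H therefore does not show a smaller change at that stage. Of the 84 genes that rose in PAB-F, 78 had a positive difference in PAB-H, with a median of 0.32 on the log2 scale against 1.14 in PAB-F. Of the 59 that fell, 53 had a negative difference in PAB-H, with a median of -0.13 against -0.86. Over all 11474 genes the sign was the same in 72.2%. With PAB-H replicate 2 left out in place of replicate 6, 77 of the 84 and 47 of the 59 had the same sign, with medians of 0.30 and -0.13. In 28 of the 84 genes and 7 of the 59 the difference in PAB-H had an unadjusted p under 0.05 with the same sign, as it did in 296 of all genes.

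PAB-H animals varied widely in these genes. In PAB-H replicate 5, 78 of the 84 genes lay above all 6 Sham-H libraries, in replicate 4 it was 59 and in replicate 2 it was 42. By contrast, 9 did so in replicate 1, 14 in replicate 3 and 16 in replicate 7. Over all tested genes the share above all shams was 11.3% to 20.9% in these libraries. The 59 fallen genes had the same animals at the top, with 45, 39 and 27 below all shams in replicates 5, 4 and 2, and 5 to 13 in the other 3 animals, where 11.5% to 22.2% of all genes lay below. In the LV libraries of the same animals, 3 to 10 of the 81 rising genes with a value lay above all Sham-H LV libraries, a share of 3.70% to 12.3% beside 5.75% to 18.2% of all genes. The library labelled LV of replicate 2, whose ventricle difference went against its labels, had 6 above and 33 below, the latter beside 19.5% of all genes.

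**Figure D4:**
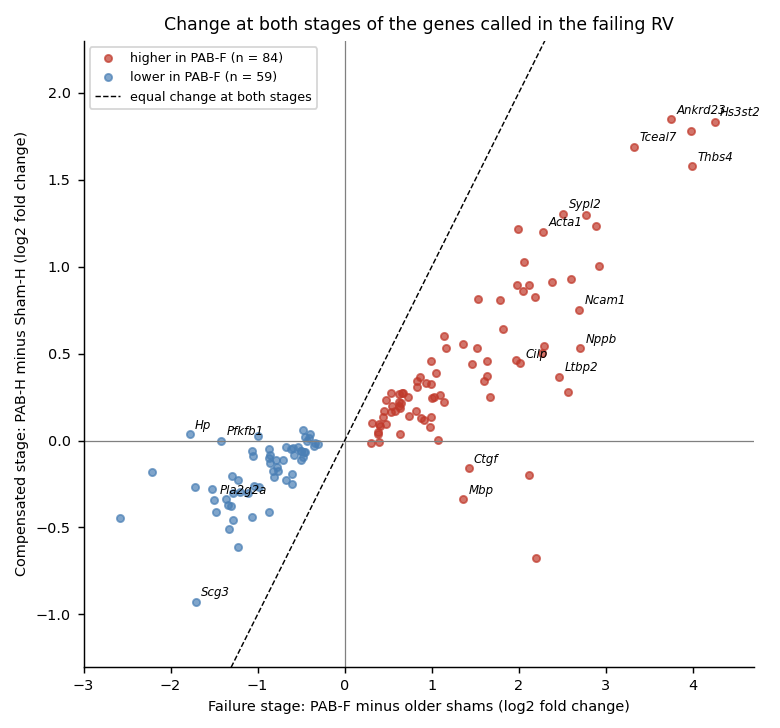
Each point is one of the 143 genes called in PAB-F, with its log2 fold change at failure on the horizontal axis and at the compensated stage on the vertical axis, and the dashed line marks equal change. The genes were chosen by their change at failure, so their place relative to this line is no test of a stage difference. Of the 84 rising genes 78 lie above 0 on the vertical axis, while Mbp and Ctgf lie below 0.

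The stress and fetal programme had the highest median of the function lists at both stages. Of its 24 genes 23 were tested, 9 rose and none fell in PAB-F, where 0.732% of all genes rose. The median log2 fold change of the list was 1.46 in PAB-F and 0.53 in PAB-H, where the medians over all genes were -0.0077 and -0.0050, and the median interaction was 1.03, positive in 20 of 23 genes. The list holds genes that the study followed in these animals, so that its direction is not independent evidence. In PAB-H 8 of its genes had an unadjusted p under 0.05, all higher, as did 138 (1.20%) of all genes. Cardiomyocyte markers summed to 48358 to 59164 CPM in PAB-F and 62563 to 72160 CPM in the older shams, without overlap. Of the 7 tested markers 3 were positive and 4 negative in PAB-F, and none passed. The part of this sum in the changes of the stress list was not tested.

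Ankrd23, a stress-inducible ankyrin repeat protein of muscle, had 92.8, 645 and 341 CPM in PAB-F, and 35.9, 24.1, 16.9, 30.3 and 26.3 CPM in the older shams. The groups did not overlap, and replicate 1 was the lowest failing ventricle. In PAB-H the lowest, median and highest levels were 20.4, 44.7 and 216 CPM against 17.2, 18.7 and 35.7 CPM in Sham-H, with 3 animals above all shams, replicates 2, 4 and 5. The log2 fold change was 3.75 ± 0.66 (SE, adjusted p 0.0187) in PAB-F and 1.85 ± 0.53 in PAB-H (adjusted p 0.951), and the interaction 1.90 ± 0.82 (adjusted p 0.879).

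Tceal7, a member of the transcription elongation factor A family, had 23.2, 127 and 66.5 CPM in PAB-F, and 8.28, 7.17, 7.58, 9.54 and 3.57 CPM in the older shams, a rise by 3.33 ± 0.67 (adjusted p 0.0258). PAB-H differed from Sham-H by 1.69 ± 0.55, with 3 of 6 animals above all shams. Acta1, skeletal alpha actin, which the fetal heart uses, had 1639, 4404 and 3522 CPM in PAB-F and 515 to 735 CPM in the older shams. It rose by 2.28 ± 0.54 (adjusted p 0.0444), its difference in PAB-H was 1.20 ± 0.44, and its interaction was 1.07 ± 0.69 (adjusted p 0.888).

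The natriuretic peptides differed in spread. Nppb, which encodes B-type natriuretic peptide, had 169, 852 and 579.6 CPM in PAB-F, and 88.9, 45.9, 64.3, 65.1 and 145 CPM in the older shams, without overlap. It rose by 2.70 ± 0.63 (adjusted p 0.0431), whereas PAB-H, from 38 to 347 CPM, overlapped with Sham-H, from 57.6 to 313 CPM, at a difference of 0.53 ± 0.50. The interaction of Nppb was 2.17 ± 0.80 (unadjusted p 0.0135, adjusted p 0.872). Nppa, atrial natriuretic peptide, had 281, 5554 and 5181 CPM in PAB-F and 50.8, 47.5, 76.6, 98.2 and 1211 CPM in the older shams. Sham-LF replicate 3 exceeded PAB-F replicate 1, and the difference of 3.63 ± 1.36 did not pass (adjusted p 0.149).

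Further members rose with them. Xirp2, an actin-binding protein of striated muscle, had 514, 2571 and 1337 CPM in PAB-F and 355 to 497 CPM in the older shams, a rise by 1.82 ± 0.35 (adjusted p 0.0212), and 4 of 6 PAB-H animals lay above all Sham-H libraries. Gdf15, a cytokine of stressed tissue, rose by 1.46 ± 0.33 (adjusted p 0.0379), and Ankrd2, another muscle ankyrin repeat protein, by 2.39 ± 0.56. In both, only 2 PAB-F libraries lay above all older shams. Mybpc2, the fast skeletal myosin-binding protein C, rose by 2.06 ± 0.42, and Hs3st2, a heparan sulfate sulfotransferase, by 4.25 ± 0.78. Hs3st2 was low, with means of 3.18 CPM in PAB-F and 0.164 CPM in the older shams. The enkephalin gene Penk had 93.2, 130.2 and 119 CPM in PAB-F against 33.4 to 55.1 CPM in the older shams, and 3 PAB-H animals lay above all Sham-H. Its difference was 1.36 ± 0.43 in PAB-F (adjusted p 0.101) and 0.95 ± 0.35 in PAB-H, which gave an interaction of 0.41 ± 0.56. Myh7, the slow beta-myosin heavy chain, lay above the older shams in all 3 PAB-F libraries at a difference of 1.05 ± 0.37 (adjusted p 0.130).

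The promoters of Ankrd23, Nppb, Acta1 and Tceal7 are shown because these 4 genes of the fixed set rose together in PAB-F. Each run is 250 bases up to the transcription start, 5′ to 3′ on the strand of the gene, from RefSeq on the build GRCr8, matched by symbol. Capitals mark the M-CAT motif, a binding site of TEAD factors in muscle genes, searched as CATTCC on both strands.
Ankrd23 (chr9:46274511-46274760, minus strand): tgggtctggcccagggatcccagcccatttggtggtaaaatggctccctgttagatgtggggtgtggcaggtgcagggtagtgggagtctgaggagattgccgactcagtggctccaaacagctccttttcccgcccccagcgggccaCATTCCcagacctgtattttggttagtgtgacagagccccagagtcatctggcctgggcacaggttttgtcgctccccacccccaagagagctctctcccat
Nppb (chr5:163699758-163700007, plus strand): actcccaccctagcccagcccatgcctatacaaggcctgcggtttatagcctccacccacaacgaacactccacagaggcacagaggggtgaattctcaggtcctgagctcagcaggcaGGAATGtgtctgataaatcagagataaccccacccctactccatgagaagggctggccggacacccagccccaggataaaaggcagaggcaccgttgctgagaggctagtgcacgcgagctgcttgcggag
Acta1 (chr19:68784195-68784444, minus strand): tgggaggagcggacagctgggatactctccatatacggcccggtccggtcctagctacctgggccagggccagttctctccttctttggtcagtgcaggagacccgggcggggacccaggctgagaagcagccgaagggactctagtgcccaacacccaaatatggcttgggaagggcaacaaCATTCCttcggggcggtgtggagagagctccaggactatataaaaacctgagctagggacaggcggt
Tceal7 (chrX:104019834-104020083, plus strand): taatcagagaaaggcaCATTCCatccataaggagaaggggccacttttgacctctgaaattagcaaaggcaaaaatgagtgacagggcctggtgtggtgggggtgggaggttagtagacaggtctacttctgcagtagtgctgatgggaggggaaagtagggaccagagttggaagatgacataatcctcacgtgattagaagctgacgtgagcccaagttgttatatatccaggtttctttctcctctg
All 4 runs held the motif. Among genes that rose in PAB-F, 12 of the 65 with a promoter in the table (18.5%) held it, and the 4 shown are among these 12. It was held by 2 of 40 fallen genes (5.0%) and 868 of 8732 tested genes with a promoter (9.94%). The other 3 motifs were searched in the same way. The GATA factor site, searched as AGATAA, was held by 9.23%, 10.0% and 5.69% of these sets in the same order. The AP-1 site, searched as TGAGTCA, was held by 1.54%, 10.0% and 3.16%. The core promoter box, searched as TATAAA, was held by 9.23%, 5.0% and 6.67%. These are matches of letters, with no test, and binding at them was not tested.

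In the matrix list the compensated and failing ventricles had medians of opposite sign. Of 34 genes 26 were tested, and 4 rose and none fell in PAB-F, where 0.732% of all genes rose. The median was 0.29 in PAB-F and -0.11 in PAB-H. The interaction was positive in 24 of 26 genes, beside 5790 of all 11474, with a median of 0.49. In 8 genes it had an unadjusted p under 0.05, all higher, as it did in 256 (2.23%) of all genes. The genes that rose were Thbs4, a thrombospondin of injured tissue, by 3.99 ± 0.74, Ltbp2, a fibrillin-binding protein, by 2.47 ± 0.55, Cilp, a secreted matrix protein, by 2.01 ± 0.36, and Ctgf by 1.42 ± 0.33 (adjusted p 0.0189, 0.0379, 0.0187 and 0.0441).

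PAB-F replicate 1 stood apart in this list, as 2 of 26 genes lay above all older shams there, against 18 in replicate 2 and 16 in replicate 3. Over all genes replicate 1 was lowest too, with 15.8% above all older shams against 24.0% and 26.2%. Thbs4 had 1.63, 39.6 and 20.3 CPM in PAB-F and 0.727 to 1.69 CPM in the older shams. In Ltbp2 the levels were 5.04, 72.6 and 26.0 CPM in PAB-F and 4.20 to 9.13 CPM in the older shams. Replicate 1 was thus within the shams in both genes. Cilp, with 8.79, 29.5 and 14.6 CPM in PAB-F and 2.85 to 6.03 CPM in the older shams, had all 3 failing ventricles above.

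The fibrillar collagens themselves did not pass. Col1a1, a chain of type I collagen, had 141, 229 and 184 CPM in PAB-F and 126 to 203 CPM in the older shams, and 182 to 286 CPM in PAB-H against 235 to 356 CPM in Sham-H. It differed by 0.26 ± 0.19 in PAB-F and -0.18 ± 0.15 in PAB-H, an interaction of 0.44 ± 0.24 (adjusted p 0.879). For Col3a1, type III collagen, the interaction was 0.53 ± 0.25, and for Col8a1, a short-chain collagen, 0.87 ± 0.43 (adjusted p 0.879 and 0.879). Col8a1 lay above the older shams in all 3 PAB-F libraries, at a difference of 1.21 ± 0.33 (adjusted p 0.0658).

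Among matrix-processing genes 2 of 21 tested rose, beside 0.732% of all genes. They were Fap and the collagen cross-linking oxidase Loxl1, by 0.98 ± 0.20 and 1.07 ± 0.24. Loxl1 differed by 0.0058 ± 0.20 in PAB-H. Of 20 tested ligands and regulators of TGF-beta signalling, 3 rose, namely Tgfb2, Ltbp2 and Gdf15. Tgfb2, a ligand, had 22.3, 65.3 and 41.6 CPM in PAB-F and 11.6 to 15.0 CPM in the older shams, a rise by 1.64 ± 0.33 (adjusted p 0.0258), against 0.46 ± 0.27 in PAB-H. No member of either list fell.

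Energy metabolism had small differences of the other sign. Of 34 tested nuclear subunits of the respiratory chain none passed in any of the 3 RV comparisons. The median was -0.30 in PAB-F and -0.08 in PAB-H, 32 of 34 were negative in PAB-F with 17 of them at an unadjusted p under 0.05, as were 1325 (11.5%) of all genes on the lower side, and the interaction was negative in all 34, with none at an unadjusted p under 0.05. Ndufa4 and Ndufa9, first named as subunits of complex I, differed by -0.38 ± 0.19 and -0.32 ± 0.13 in PAB-F. In PAB-F replicates 1, 2 and 3, 15, 27 and 27 of the 34 lay below all older shams, against 17.0%, 24.9% and 26.8% of all genes. In PAB-H 21, 17 and 12 lay below all Sham-H libraries in replicates 3, 4 and 5, and 0 in the other 3 animals. The shares of all genes were 19.2%, 22.2% and 13.6% in these replicates and 11.5% to 14.5% in the others. Replicates 3, 4 and 5 were in library series 2, replicates 1 and 2 in series 1 and replicate 7 in series 3. The split thus coincides with the series, and the part of the series in it was not tested.

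Fatty acid oxidation had 29 tested genes, none passing, with a median of -0.16 in PAB-F and 0.0091 in PAB-H and 9 lower at an unadjusted p under 0.05 in PAB-F, where the share of all genes was 11.5%. Cpt1b and Cpt2, which carry fatty acids into mitochondria, differed there by 0.20 ± 0.09 and -0.30 ± 0.11. Among 23 genes of glucose use, Pfkfb1 and Eno3 fell and Hk1 rose, where 0.514% of all genes fell and 0.732% rose. Eno3, muscle enolase, had 546, 305 and 355 CPM in PAB-F and 881 to 958 CPM in the older shams, so that it fell by 1.21 ± 0.22 on the log2 scale (SE, adjusted p 0.0187). In PAB-H 4 of 6 animals lay below all Sham-H libraries for Eno3, at a difference of -0.30 ± 0.16. Hexokinase 1, Hk1, had 204, 298 and 253 CPM in PAB-F and 138 to 190.0 CPM in the older shams, a rise by 0.65 ± 0.12 (adjusted p 0.0197), and 4 of 6 PAB-H animals lay above all Sham-H.

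The contractile and electrical lists held single genes that passed in PAB-F, where 0.732% of all genes rose and 0.514% fell. Of 18 tested adult contractile genes none passed, with a median of -0.16 in PAB-F and -0.04 in PAB-H. Myh6, the fast alpha-myosin heavy chain, had 16128, 7767 and 11439 CPM in PAB-F and 15415 to 18504 CPM in the older shams, a difference of -0.56 ± 0.21 (adjusted p 0.142), and Myl2, the ventricular light chain, differed by -0.25 ± 0.18. In calcium cycling, with 20 tested genes, the T-type channel gene Cacna1g rose by 1.61 ± 0.31 (adjusted p 0.0237) and Hrc, which binds calcium in the sarcoplasmic reticulum, fell by 0.82 ± 0.20 (adjusted p 0.0444). Cacna1g had 9.81, 28.7 and 28.7 CPM in PAB-F and 5.10 to 8.79 CPM in the older shams. The pacemaker channel gene Hcn2 was the only one of 18 tested channel genes that passed, with 126, 209 and 243 CPM in PAB-F and 39 to 112 CPM in the older shams, a rise by 1.52 ± 0.33 (adjusted p 0.0350).

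The remaining function lists held few genes that passed in PAB-F, where 0.732% of all genes rose and 0.514% fell. Mcm5, a DNA replication helicase subunit, rose by 0.88 ± 0.22 (adjusted p 0.0496) as the only one of 30 cell cycle genes, and the median of that list was 0.34 in PAB-F and 0.23 in PAB-H. Hspb7, a small heat shock protein of muscle, rose by 0.54 ± 0.13 (adjusted p 0.0441) as the only one of 20 chaperones, whose median was -0.09 in PAB-F and 0.09 in PAB-H. No member passed among 24 immediate early genes, where the medians in PAB-F and PAB-H were -0.07 and -0.06 and where Fos differed by -1.31 ± 0.70 and Fosb by 0.08 ± 0.45 in PAB-F. The same held for 15 genes of the circadian clock (medians 0.02 and 0.06, Arntl 0.60 ± 0.25, Clock 0.25 ± 0.19) and 24 interferon-stimulated genes (-0.06 and -0.18, Ifit2 0.08 ± 0.19, Ifit3 0.14 ± 0.24). It also held for 25 genes of angiotensin and adrenergic signalling (0.16 and -0.0082, Ace 0.30 ± 0.36) and 22 mitochondrial and energy transcription factors (0.25 and 0.17, Ppara 0.51 ± 0.48, Pparg 0.03 ± 0.20).

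**Figure D5:**
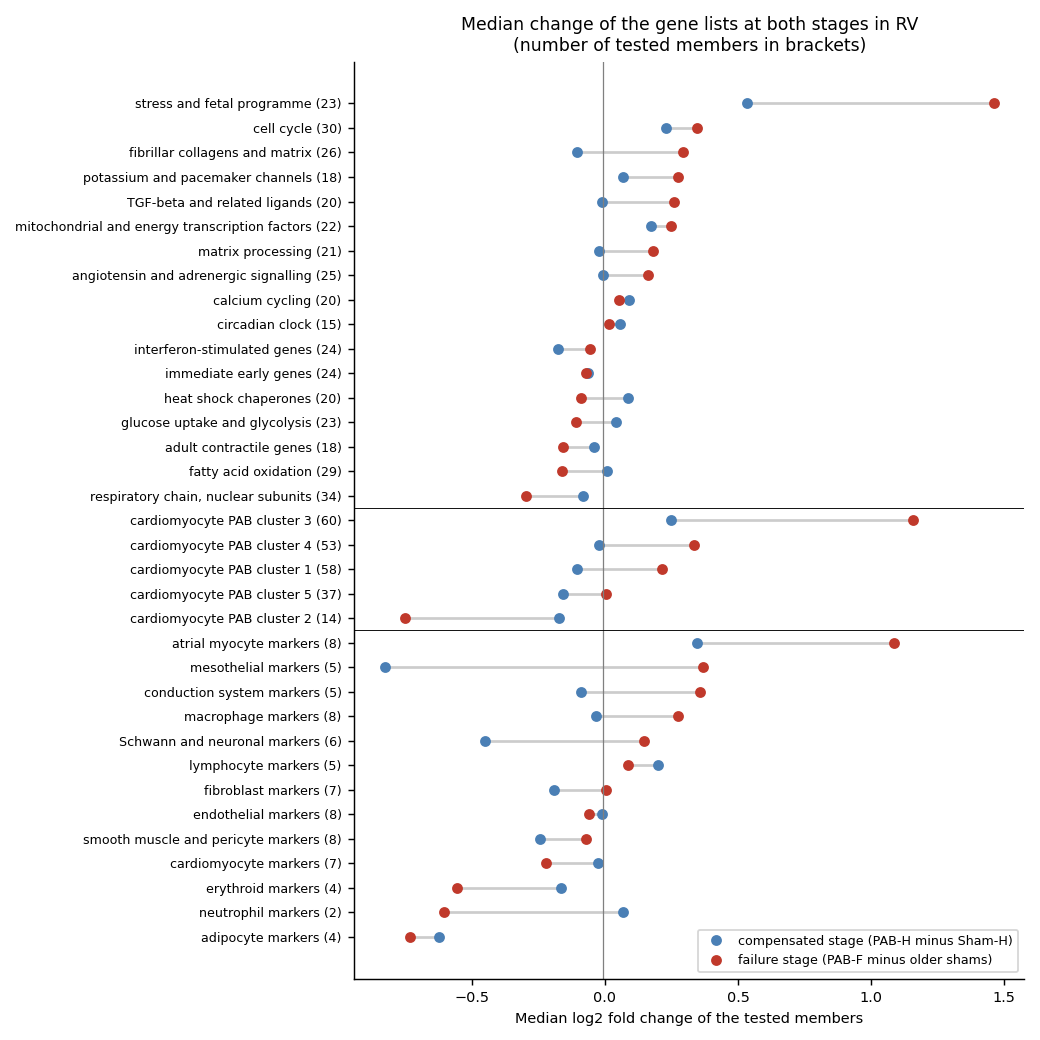
Each row is a gene list, with the number of tested members in brackets. Blue points give its median log2 fold change at the compensated stage, red points at failure, and the vertical line the median of all genes. The stress and fetal programme lies at 0.53 and 1.46, and the respiratory chain at -0.08 and -0.30.

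The study sorted genes regulated upon PAB in isolated cardiomyocytes of other animals into 5 clusters, which were looked up here. Cluster 3, which in those cells was induced mainly at failure, had 60 tested genes. Of these 15 rose and none fell in PAB-F, where 0.732% of all genes rose. The median of cluster 3 was 1.16 in PAB-F, 0.25 in PAB-H and 0.77 in the interaction, which was positive in 54 of 60. It had an unadjusted p under 0.05 in 20, all higher, as it did in 256 (2.23%) of all genes. Ncam1, a neural cell adhesion molecule, had 5.99, 47.3 and 24.2 CPM in PAB-F and 3.63 to 4.43 CPM in the older shams, a rise by 2.69 ± 0.54 (adjusted p 0.0258). Cluster 4, which rose at both stages in the cells, had 5 risen genes of 53, beside 0.732% of all genes. Among the 5 was the glutamate transporter gene Slc1a3 (1.14 ± 0.24). The medians of cluster 4 were 0.34 in PAB-F and -0.02 in PAB-H.

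Clusters 1 and 5, highest at the compensated stage in the cells, had 2 of 58 and 1 of 37 risen genes, beside 0.732% of all genes. Their medians were 0.22 and 0.0040 in PAB-F and -0.10 and -0.16 in PAB-H. In cluster 2, lower upon PAB in the cells, all 14 tested genes were negative in PAB-F, with a median of -0.75 against -0.17 in PAB-H. Dlgap1, a synaptic scaffold gene, fell there by 1.37 ± 0.31 (SE, adjusted p 0.0414).

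Marker lists of other cell types were read beside these results. Atrial myocyte markers, 8 of 8 in the table, summed to 1434, 2432 and 4555 CPM in the PAB-F libraries, 1134 to 2688 CPM in the older shams, 1595 to 3325 CPM in PAB-H and 1346 to 2710 CPM in Sham-H. One member, Pam, which amidates peptides, rose by 0.83 ± 0.20 (adjusted p 0.0496). PAB-F replicate 3 and Sham-LF replicate 3 were the highest of their groups, and Sham-LF replicate 3 was also the sham with 1211 CPM of Nppa. The part of atrial tissue in these levels was not tested. Macrophage markers, 8 of 8, summed to 308, 610 and 604 CPM in PAB-F and 376 to 519 CPM in the older shams, with no gene passing (Cd68 0.45 ± 0.20, Csf1r 0.32 ± 0.14). PAB-F replicate 1 was thus below all older shams in macrophage markers and lowest of PAB-F in matrix genes. It was also below all older shams in fibroblast markers, with 1695 CPM against at least 1793 CPM. The part of these cell types in the matrix levels was not tested.

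In the other marker lists, of the members described here, Fap and Mbp passed in PAB-F. Fibroblast markers, 8 of 8 in the table, summed to 1695, 2088 and 2600 CPM in PAB-F replicates 1, 2 and 3 and 1793 to 2544 CPM in the older shams. Endothelial markers had a median of -0.06 in PAB-F (Pecam1 -0.20 ± 0.16, Cdh5 0.50 ± 0.40), smooth muscle and pericyte markers -0.07 (Myh11 -0.06 ± 0.30, Cnn1 -0.10 ± 0.55), and cardiomyocyte markers -0.22 (Tnnt2 -0.22 ± 0.13). Lymphocyte markers had a median of 0.09 (Cd3e 0.51 ± 0.49, Cd3d -0.19 ± 0.40), neutrophil markers -0.61 (S100a8 -0.41 ± 0.53, S100a9 -0.81 ± 0.50) and adipocyte markers -0.73 (Adipoq -1.67 ± 1.24, Cidec -1.18 ± 1.18). Mesothelial markers had 0.37 (Msln 0.37 ± 0.86, Wt1 0.44 ± 0.20), conduction system markers 0.36 (Hcn4 0.89 ± 0.71, Cntn2 0.36 ± 0.34) and erythroid markers -0.56 (Hbb -0.47 ± 0.35, Hba2 -1.14 ± 0.52).

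The same interaction was tested in LV and in the septum (Spt) of the same 20 animals, from separate libraries. No gene passed among 11446 in LV (0%) or among 11397 in Spt (0%) in edgeR, and none passed in DESeq2. In edgeR 189 and 285 had an unadjusted p under 0.05, where about 572 and 570 would be expected if no gene changed. The difference between the interaction in RV and in LV, tested in 1 fit of 40 libraries, passed in none of 11627 genes (0%) as well, with 286 at an unadjusted p under 0.05 and 1212 with the animal as a block, and none passed in DESeq2. No gene can therefore be called particular to RV. These fits hold PAB-H replicate 2 with its ventricles as labelled.

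The stress and fetal programme had a median interaction of -0.02 in LV and 0.37 in Spt, against 1.03 in RV. The matrix list had 0.22 in LV and 0.21 in Spt, against 0.49 in RV. Mbp had an interaction of 0.98 ± 0.40 (SE) in LV and 1.41 ± 0.52 in Spt, the same sign in all 3 chambers. Pfkfb1 had 0.16 ± 0.36 in LV and 0.06 ± 0.38 in Spt, and its RV minus LV difference of -1.57 ± 0.48 had an unadjusted p of 0.00264 (adjusted p 1.000). The genes called in PAB-F had a median at failure of -0.0097 in LV and 0.25 in Spt for the 84 that rose, and of 0.05 in LV and -0.17 in Spt for the 59 that fell.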

How the data were processed

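Poly(A) RNA of RV, LV and septum was sequenced, and only RV, LV and septum libraries of the 20 animals entered the fits named here, with the other RV libraries in 1 alternative. Per the labels and methods of the authors, reads were trimmed with Trim Galore, mapped by STAR (genome build Rnor6.0) and assigned with featureCounts, and the deposited counts are whole reads per gene. Whether the counting used strand is not given in the sources used here, so reads of overlapping and antisense genes may not be told apart. The authors also deposited normalized signal values and FPKM values for each library, and no result rests on either.

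Counts were tested with edgeR 4.0.16 in R 4.3.3 (TMM scaling, filterByExpr, quasi-likelihood test), with the 4 groups in 1 fit and no covariate, and p-values were adjusted over all tested genes and called at 0.05. Levels are TMM-scaled CPM, and errors of log2 values are SE. DESeq2 1.42.0 was an alternative. Other alternatives were RLE scaling, no filter on low counts, other choices of animals and shams, library series as a covariate or series 2 alone, all RV libraries, the replicate number as a block, and leaving out each animal. The scripts were tested on simulated data.

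The members and gene lists were chosen with earlier results of these data known. Named were 10 fixed genes, the 10 genes of lowest interaction p in each direction whose mean reached 1 CPM in some group, passing over Y-linked genes and symbols that begin with LOC, RGD, Mir, AABR or AC, and from each list up to 4 genes that passed in an RV comparison, or its first 2 tested genes where none did, and a few of these genes are not reported here. The replicates are separate animals. Deviations from the group means of PAB-H and Sham-H animals of the same replicate number correlated at 0.143 to 0.638. Except for replicate 2, a sham of another number correlated more closely, and animals of the same number shared a library series. Whether the numbers mark pairs can thus not be told, and the replicate block changed no call in PAB-H. RV samples carry left ventricle in 1 tissue label, and the titles were followed.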

Additional observations from a re-analysis of the deposited data

Results flagged for a closer look

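Within a group, 7 values stood apart from the rest by the gap to the nearest other sample, out of 90 groups tested over 30 genes, where chance flags about 1 in 20. Nppa was 1211 CPM in Sham-LF replicate 3, against 47.5 to 98.2 CPM in the other older shams. Ankrd23 was 35.7 CPM in Sham-H replicate 1, against 17.2 to 21.6 CPM. Mbp was 3.46 CPM in PAB-H replicate 1, against 1.55 to 1.95 CPM. Mitf was 110.5 CPM in Sham-LF replicate 2, against 98.3 to 99.6 CPM. Among low values, Col8a1 was 4.35 CPM in Sham-LF replicate 1, against 6.81 to 7.70 CPM, Ctgf 84.9 CPM in Sham-H replicate 5, against 128 to 155 CPM, and Pfkfb1 1.49 CPM in Sham-H replicate 7, against 1.75 to 1.84 CPM. Each lay in another library.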

How the results depend on the processing

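The count of genes called in PAB-F was 143. It was 520 with DESeq2, 1190 with library series as a covariate, 543 in series 2 alone, 938 with the replicate block, 2 with 31 RV libraries, and 0 with Sham-RF or with Sham-LF alone, and from 0 to 591 when 1 animal was left out. For the interaction it was 4 with DESeq2, and 0 to 4 when 1 animal was left out, and 0 with the replicate block. At failure, animals of the same replicate number had correlations from -0.12 to 0.47. Whether the numbers mark pairs cannot be told there either, so the block may share only a number. The cause of these shifts was not tested.

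Among the named genes, signs of interactions that did not pass changed. With PAB-H replicate 2 left out as well, Ppara was -0.0054. With Sham-RF alone Ppara was -0.16, Tnnt2 0.0017, Cd3e -0.38, S100a8 0.21, Cidec -0.25 and Hbb 0.19, and with Sham-LF alone Adipoq was 0.23. Cd3e was -0.040 with library series as a covariate. In series 2 alone Penk was -0.057, Myh7 -0.18, Cd3e -0.75 and Adipoq 1.07, and with the replicate block Cidec was -0.32. Leaving out 1 animal gave Ppara -0.18 to 0.33, Cd3e -0.38 to 0.30, Cd3d -0.51 to 0.041, S100a8 -0.80 to 0.32, Adipoq -3.48 to 0.90, Cidec -3.34 to 1.22 and Hcn4 -0.033 to 0.96.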
